A study of Mus musculus with 6 samples.

Results

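The regions compared here came from the S set of a CUT&Tag study in primary mouse cardiac fibroblasts, in which the library treated with TGF-b was set against the library labelled NC. A region was a place where the authors called a peak in either library, and regions on the mitochondrial chromosome were left out. The table held 52723 regions, 11 of them mitochondrial, so that 52712 remained of the 456310 regions in all 4 tables of the series. Statements about genes were restricted to the 17065 regions (32.4%) whose larger normalised read density was 7.5 or more, called kept regions below. Both libraries were made from cells labelled as primary cardiac fibroblasts from heart, and no label gives a strain, an age, an animal or a pooling of animals. No label states the antibody, and S was read as SRF because the study profiled SRF and TAZ. The design text of the series speaks of Tet3 knockout by a Cre virus, whereas no label of these libraries carries that allele, and NC is not defined further in the labels. A further S library, given TGF-b and SiSRF, was not compared here. The study instead describes cells given siRNA against Piezo2 or a scrambled siRNA before TGF-b. Whether the NC and TGF-b cells received scrambled siRNA is not stated in the labels. Each treatment had 1 library, so every difference below lies between a pair of libraries, no test was possible, and treatment and library cannot be told apart.

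SRF, serum response factor, is a transcription factor that binds the CArG box, an AT-rich stretch between CC and GG. With myocardin-related cofactors, which sense the pool of free actin, it drives cytoskeletal and contractile genes, and with ternary complex factors of the ETS family it drives immediate early genes. TGF-b turns cardiac fibroblasts into myofibroblasts, which contract and deposit matrix, and SRF target genes are part of that change. In CUT&Tag an antibody tethers a transposase to chromatin, and reads accumulate where the bound factor sits, with a background of accessible chromatin such as active promoters.

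Of the genes with a CArG box in their promoter and a kept region near a start site, 6 are shown with the sequence upstream of the start site, because they span the range of responses described below. They are Vcl (vinculin, an adhesion protein and a classical SRF target), Fhl2 (a LIM protein that is an SRF target and cofactor), Eif2s1 (the alpha subunit of translation initiation factor eIF2), Arrdc4 (an alpha-arrestin), Mknk2 (a kinase that phosphorylates the cap-binding protein eIF4E) and Tmem163 (a zinc transporter). The sequences are the 250 bases before the RefSeq start site in GRCm38.p6, at chr14:20929148-20929397 on the plus strand for Vcl, chr1:43196762-43197011 on the minus strand for Fhl2, chr12:78861822-78862071 on the plus strand for Eif2s1, chr7:68749239-68749488 on the minus strand for Arrdc4, chr10:80676294-80676543 on the minus strand for Mknk2 and chr1:127678022-127678271 on the minus strand for Tmem163. Capitals mark the CArG box, which begins 227, 96, 106, 210, 32 and 217 bases before the start site in that order.
Vcl: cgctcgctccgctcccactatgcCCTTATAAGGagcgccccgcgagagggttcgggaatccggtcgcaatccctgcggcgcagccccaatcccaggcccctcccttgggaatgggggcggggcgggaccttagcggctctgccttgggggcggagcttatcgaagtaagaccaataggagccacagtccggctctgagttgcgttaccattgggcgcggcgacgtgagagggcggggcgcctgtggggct
Fhl2: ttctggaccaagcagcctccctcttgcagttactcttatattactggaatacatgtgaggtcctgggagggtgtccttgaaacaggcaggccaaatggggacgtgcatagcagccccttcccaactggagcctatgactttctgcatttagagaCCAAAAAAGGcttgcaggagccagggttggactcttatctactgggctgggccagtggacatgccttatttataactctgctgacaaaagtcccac
Eif2s1: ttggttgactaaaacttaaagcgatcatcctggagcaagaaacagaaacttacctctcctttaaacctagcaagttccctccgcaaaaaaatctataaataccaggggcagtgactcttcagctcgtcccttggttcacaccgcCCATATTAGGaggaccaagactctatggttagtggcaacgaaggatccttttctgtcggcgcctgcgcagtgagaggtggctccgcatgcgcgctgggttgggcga
Arrdc4: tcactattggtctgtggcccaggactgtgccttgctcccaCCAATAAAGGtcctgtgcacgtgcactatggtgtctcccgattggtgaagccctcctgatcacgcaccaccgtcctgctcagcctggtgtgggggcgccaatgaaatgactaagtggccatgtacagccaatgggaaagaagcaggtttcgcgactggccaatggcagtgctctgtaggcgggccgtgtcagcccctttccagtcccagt
Mknk2: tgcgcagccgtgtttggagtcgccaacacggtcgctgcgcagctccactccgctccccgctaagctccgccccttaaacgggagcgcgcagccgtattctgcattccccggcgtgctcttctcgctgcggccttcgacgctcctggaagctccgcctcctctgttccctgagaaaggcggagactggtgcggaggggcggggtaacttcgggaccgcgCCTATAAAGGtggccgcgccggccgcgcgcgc
Tmem163: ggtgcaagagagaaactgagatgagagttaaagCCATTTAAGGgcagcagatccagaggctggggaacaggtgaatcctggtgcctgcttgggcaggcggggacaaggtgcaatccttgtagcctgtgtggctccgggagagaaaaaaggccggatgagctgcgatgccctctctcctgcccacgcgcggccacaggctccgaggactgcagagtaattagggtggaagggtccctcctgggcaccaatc

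Depth per region was low. The deposited densities could be turned back into whole reads, at a density of 0.5 per read before the authors' rescaling, and all regions held a median of 8 reads in NC and 10 in TGF-b. Kept regions held a median of 13 and 17 reads, and in 9.27% of them a library had 3 reads or fewer. Because of the rescaling, 12 reads sufficed for the minimum density in NC whereas 18 were needed in TGF-b. The minimum was reached in NC alone by 8611 kept regions, in TGF-b alone by 4824 and in both by 3630. A region that passed through its higher library alone tends to differ between libraries, so shares of raised and lowered regions among kept regions describe this selection as well as the libraries. The region just inside the minimum had a density of 7.69 and a log2 ratio of 3.64, and the region just outside had a density of 7.43 and a log2 ratio of -4.20. Coordinates of regions are those of the deposited table, taken as GRCm39.

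Fewer kept regions were raised than lowered in TGF-b on the authors' scale. A region is called raised or lowered where its density differed at least 2-fold between the libraries. Of the 17065 kept regions, 2695 (15.8%) were raised and 5406 (31.7%) were lowered, and the median log2 ratio of TGF-b over NC was -0.42 (95% rank interval -0.46 to -0.38). This balance depended on the scaling. Without the line that the authors fitted, 5057 were raised and 3001 lowered and the median was 0.13, and raised regions made up 62.8% rather than 33.3% of those past 2-fold. After centring on the median of all regions the share was 43.0%. The zero point thus depends on the scaling, so that signs and counts below are those of the authors' scale, and medians of gene lists are set beside the median of other kept regions. Rank intervals describe the spread over regions of these libraries. Intervals of single regions and of shares cover counting error only, and for a single region they were converted from a Wilson interval on its TGF-b share of reads.

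Regions near start sites stood apart from the rest. Within 1 kb of a start site 837 of 3226 kept regions (25.9%) were raised and 264 (8.18%) were lowered, with a median of 0.45 (0.44 to 0.50) in log2 ratio. Among the 4180 regions assigned to a gene but more than 10 kb from its start site, 538 (12.9%) were raised and 1642 (39.3%) lowered, with a median of -0.69 (-0.76 to -0.66). The 7539 regions with no gene resembled the latter, with 926 (12.3%) raised, 2824 (37.5%) lowered and a median of -0.66. Regions 1 to 10 kb away fell between, with 394 raised and 676 lowered of 2120 and a median of -0.45, which turned to 0.11 without the line. The medians of the other classes kept their order without the line, at 1.0 near start sites, -0.14 beyond 10 kb and -0.10 with no gene. The distance between start-site regions and regions with no gene was 1.11 on the log2 scale with the line and 1.10 without it, and it was smaller under other choices of regions, 0.59 with no minimum density, 0.57 for as many regions taken by mean density and 0.34 with no line and a minimum of 15 reads, the last pair chosen after seeing the data.

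The plot of ratio against distance shows the change as a gradient. The median was 0.51 within 100 bp, 0.50 from there to 250 bp and 0.36 from 250 to 500 bp. It was -0.016 from 500 bp to 1 kb, and it reached -0.79 beyond 50 kb. Raised regions went from 27.9% of those within 100 bp to 10.4% of those beyond 50 kb, while lowered regions made up 6.02% and 42.4%. The sides of the start site were alike in median, at 0.46 in 2031 upstream and 0.44 in 1182 downstream regions. Raised shares were 25.2% and 27.2%. Lowered shares differed more, at 6.79% (5.78 to 7.97) upstream and 10.7% (9.03 to 12.5) downstream. Start-site medians lay above 0 on every chromosome that had such regions and was listed, from 0.27 on chromosome 15 to 0.64 on chromosome 19, and the 23 start-site regions of chromosome X had a median of 0.55.

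**Figure D1:**
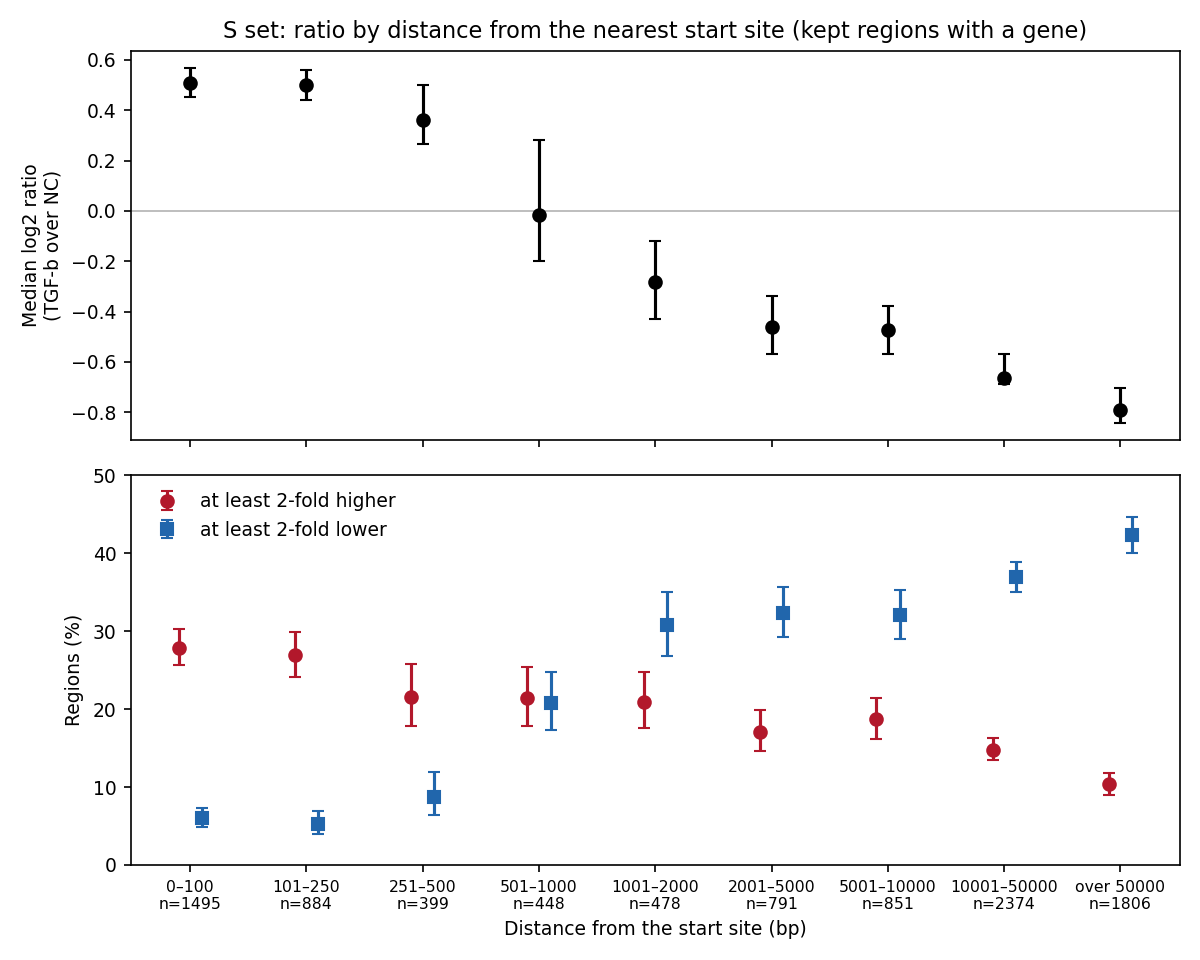
Kept regions with an assigned gene, binned by distance from the start site in bp; points are the median log2 ratio of TGF-b over NC (top) and the percentage of regions at least 2-fold higher (red) or lower (blue) in TGF-b (bottom), and bars are 95% intervals, by rank for medians and by Wilson's method for percentages. The median goes from 0.51 within 100 bp to -0.79 beyond 50 kb, and the order of raised and lowered shares turns near 1 kb.

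By annotation, the 479 regions in 5' UTRs had the highest median, 0.57, with 148 raised and 16 lowered. Promoter regions within 1 kb followed with 515 raised and 138 lowered of 2044 and a median of 0.46. Exons were near the middle (740 regions, median 0.17), whereas introns (5690 regions, 809 raised, 2085 lowered) and 3' UTRs (194 regions, 24 raised, 77 lowered) had medians of -0.64 and -0.68.

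The contrast was present within each class of call, though its size varied. Of the kept regions, 9279 had been called in NC only, 6834 in TGF-b only and 952 in both, and start-site regions made up 916, 1825 and 485 of these. Among regions called in both libraries, the median was 0.29 (0.24 to 0.33) near start sites and -0.25 (-0.42 to -0.17) where no gene was assigned. Among regions called in NC only the medians were -0.47 and -1.21, and among those called in TGF-b only they were 0.87 and 0.61. Split into 4 equal classes of mean density, the lowest class showed medians of 1.56 and -1.70 for the same places and the highest class 0.38 and -0.21. In the lowest class every start-site region and every region with no gene was past 2-fold, because a region of low mean density passes the minimum only through its higher library, so the size of the gap there is set by the minimum.

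**Figure D2:**
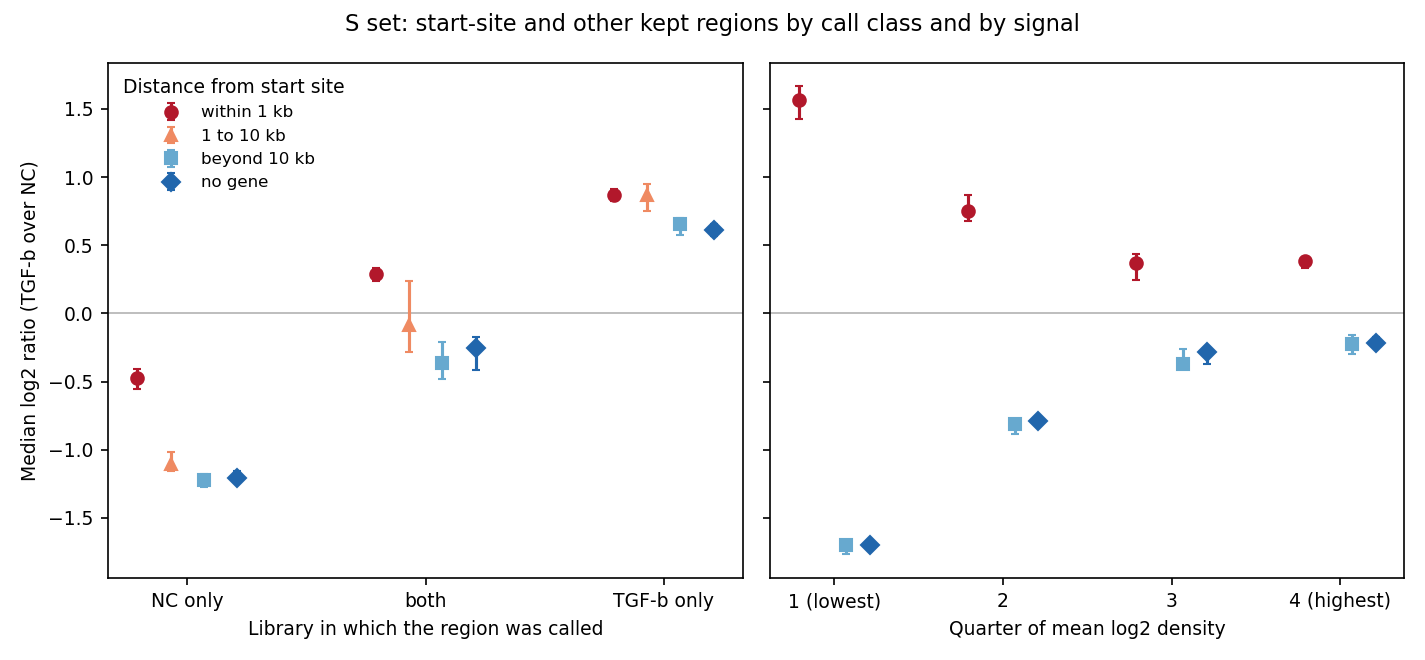
Median log2 ratio of TGF-b over NC of kept regions by place, split by the library in which the peak was called (left) and by class of mean log2 density from lowest to highest (right); bars are 95% rank intervals. Start-site regions lie highest in each column apart from TGF-b-only calls, where regions 1 to 10 kb away share their median of 0.87, and every region drawn in the lowest class of mean density is past 2-fold.

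The same difference appeared inside single genes. In 328 genes with a kept region both within 1 kb of a start site and beyond 10 kb, the start-site region had the higher log2 ratio in 226 (68.9%). The medians were 0.24 near the start site and -0.68 in the distant regions, and the median difference was 0.89 (0.68 to 1.10).

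The 9526 kept regions with a gene belonged to 6283 genes, and 18.6% of these regions were raised and 27.1% lowered. At least 1 raised region was found in 1618 genes (25.8%) and at least 1 lowered region in 2000 (31.8%). Raised regions alone were carried by 1375 genes (21.9%), lowered regions alone by 1757 (28.0%), both kinds by 243 (3.87%) and neither by 2908 (46.3%). Of the raised regions in genes with raised regions alone, 53.6% lay within 1 kb of a start site, compared with 11.7% of the lowered regions in genes with lowered regions alone, 59.3% of which lay beyond 10 kb. Regions of genes with neither kind lay within 1 kb in 53.5%, close to the share of raised regions. Genes with both kinds were long, with a median length of 120536 bp against 17488 bp, 21932 bp and 16858.5 bp for raised only, lowered only and neither. In them, 50 of 302 raised regions (16.6%) and 14 of 454 lowered regions (3.08%) were near a start site.

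Among genes with many raised regions, Rbfox3 (a neuronal splicing factor) led with 6 of 15 raised, 1 lowered and a median log2 ratio of 0.45. Casz1, a zinc finger transcription factor of heart and vessel development, had 4 of 8 raised and none lowered, and its start-site region held 5 reads in NC and 25 in TGF-b (log2 ratio 1.55, 0.42 to 3.09). Cfap77, a ciliary protein gene, had all 4 of its regions raised, including 0 and 18 reads at its start site and 5 and 43 reads in an intron (2.32, 1.25 to 3.84). Col23a1, a transmembrane collagen, had 4 of 9 raised with 3 and 25 reads in its highest intronic region, and Megf11 had 4 of 6 raised with a median of 1.23. In these 4 genes no region was lowered, and their raised regions away from start sites were all intronic.

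Genes with many lowered regions were long genes of neuronal adhesion and synapse. Cntnap2, a neurexin-like adhesion molecule, had 14 lowered and 1 raised of 22 kept regions (median -1.26), Nrxn3, a presynaptic receptor, 12 lowered and 3 raised of 26 (-0.98), and Dlg2, a postsynaptic scaffold, 9 lowered of 11 (-1.48). The Cntnap2 regions held at most 20 reads in either library, and 16 of the 22 had been called in NC only. In Dlg2, 2 start-site regions with overlapping windows held 18 and 19, and 18 and 17 reads (log2 ratios -0.48 and -0.63). Its 9 other regions were all lowered. Each of these 9 reached the minimum density in NC alone, so their direction follows in part from that selection. Lsamp, Pcdh15 and Ryr3 had 7 lowered regions each. Csmd1 was on both lists with 5 raised and 7 lowered of 20.

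Ranked by the bound of their counting interval nearest 0, the 12 foremost raised regions lay near a start site in 8 cases and held no read in NC in 9, with both true of 6. Unk, an RNA-binding zinc finger protein, held 0 reads in NC and 27 in TGF-b at chr11:115920936-115921081, so that its density was at least 4.61-fold higher with NC set to 3 reads. Ctdsp1, a small phosphatase of the RNA polymerase II tail, held 0 and 23 reads at chr1:74430553-74430718 (at least 3.94-fold), and Gls2, a mitochondrial glutaminase, held 0 and 21 at chr10:128029986-128030169 (at least 3.61-fold). Dgat1, which completes triglyceride synthesis, and Hmx3, a homeobox factor, each held 3 and 48 reads (3.05, 1.84 to 5.03). The other regions of the set were Gm2061, Tm2d3, 1700094J05Rik, Enkur, Gm28750, 9130221F21Rik and Gm10532, with 0 or 1 read in NC and 21 to 31 in TGF-b.

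Of the 12 foremost lowered regions none lay within 1 kb of a start site, and none held a read in TGF-b, and the folds below set TGF-b to 3 reads. Neighbouring regions of Tasor, a subunit of the HUSH silencing complex, held 22 and 21 reads in NC (chr14:27186039-27186167, at least 8.75-fold lower, and chr14:27186367-27186458). Their windows overlap, so they share reads. Mdga2 and Nav3, genes of neuronal adhesion and migration, and the amino acid transporter gene Slc38a6 held 17 reads in NC, each at least 6.87-fold lower. Dcc, the netrin receptor, held 16, and Kmt2c, a histone H3K4 methyltransferase, held 15. Gm45406, Mep1b, 4930483O08Rik, Gm31105 and Gm3363 completed the set with 13 to 18 reads.

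Deep regions were few. The 27 kept regions with 500 reads or more in a library included 21 without a gene, and without them 2693 regions were raised and 5394 lowered. Below that depth, the regions with the most signal that were called in both libraries were an intron of Gm12735 (293 and 409 reads, log2 ratio 0.038, -0.18 to 0.26) and an intron of Actr3b (243 and 326 reads, -0.027, -0.27 to 0.21). Sfi1 held 215 and 242 reads (-0.29), Eif4enif1 held 114 and 105 (-0.60), 2700054A10Rik held 228 and 177 (-0.83) and A530065N20Rik held 64 and 157 (0.79, 0.39 to 1.22). None of these passed 2-fold.

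Genes of the SRF response, its cofactors and the TGF-b, YAP and Piezo pathways were looked up next. Of 38 such genes, 18 had any region and 5 had a kept one. No region was listed for Acta2, Tagln, Cnn1, Myl9, Actb or Actg1 (actins and contractile proteins), for Fos, Fosb, Egr1, Egr2, Ier2 or Junb (immediate early genes), for Ccn1, Ccn2 or Ankrd1 (targets shared with YAP and TAZ), or for Col1a2, Col3a1, Tgfb1, Tet3 and Wwtr1. Srf itself had 2 regions and Mrtfa and Mrtfb 4 each, all below the minimum density. Within 1 kb of a start site, 10 of the 38 genes had a region and 3 had a kept one, beside 3871 (17.7%) and 2534 (11.6%) of 21896 protein-coding genes of RefSeq. Counts of gene lists from here on stand beside 18.6% raised and 27.1% lowered of all kept regions with a gene. Near start sites the shares were 25.9% and 8.18%, and of the 6300 gene regions farther away 932 were raised and 2318 lowered.

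Cytoskeletal and contractile target lists pointed in different directions. All 8 kept regions of cytoskeletal targets were near start sites, and all had more than 0 as log2 ratio, with a median of 0.44. Myh9, the heavy chain of nonmuscle myosin IIA, was the only one past 2-fold, with 7 reads in NC and 28 in TGF-b (1.30, 0.28 to 2.60). Pdlim5 held 11 and 28 reads (0.72), Vcl 13 and 29 (0.55, -0.32 to 1.53), Actn1 10 and 21 (0.44, the same reads in both of its overlapping windows) and Zyx, the adhesion protein zyxin, 24 and 46 (0.38). A median of 0.44 is that of start-site regions in general, 0.45. The actin-disassembly factor Wdr1 held 13 and 26 reads, and 14 and 25 in a second region.

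Contractile targets had 5 kept regions, of which 4 were lowered (median -1.99). All 4 were intronic, a place where 36.6% of 5690 kept regions were lowered. Synpo2, an actin-bundling protein, held 24 and 7, and 23 and 5 reads (-2.21 and -2.57) in neighbouring regions, which may share reads. Mylk, the myosin light chain kinase, held 15 and 5 (-1.99, -3.57 to -0.76), and Myh11, smooth muscle myosin, held 13 and 6 (-1.58). The start-site region of Smtn, smoothelin, held 19 and 22 reads (-0.35, -1.21 to 0.54). The start-site region was not past 2-fold.

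Upstream of SRF, the start site of Rhoa, the GTPase that drives actin polymerisation, was raised with 5 and 22 reads at chr9:108183126-108183401 (1.37, 0.21 to 2.92). Myocd, the cardiac and smooth muscle cofactor myocardin, held 9 and 20 reads in an intron (0.51). Fhl2 held 21 and 23, and 21 and 20 reads in its start-site regions (-0.42 and -0.62), whose windows overlap. Of the immediate early targets, Fosl2, an AP-1 subunit, alone had a kept region, with 6 and 22 reads at its start site (1.15, 0.04 to 2.57).

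**Figure D3:**
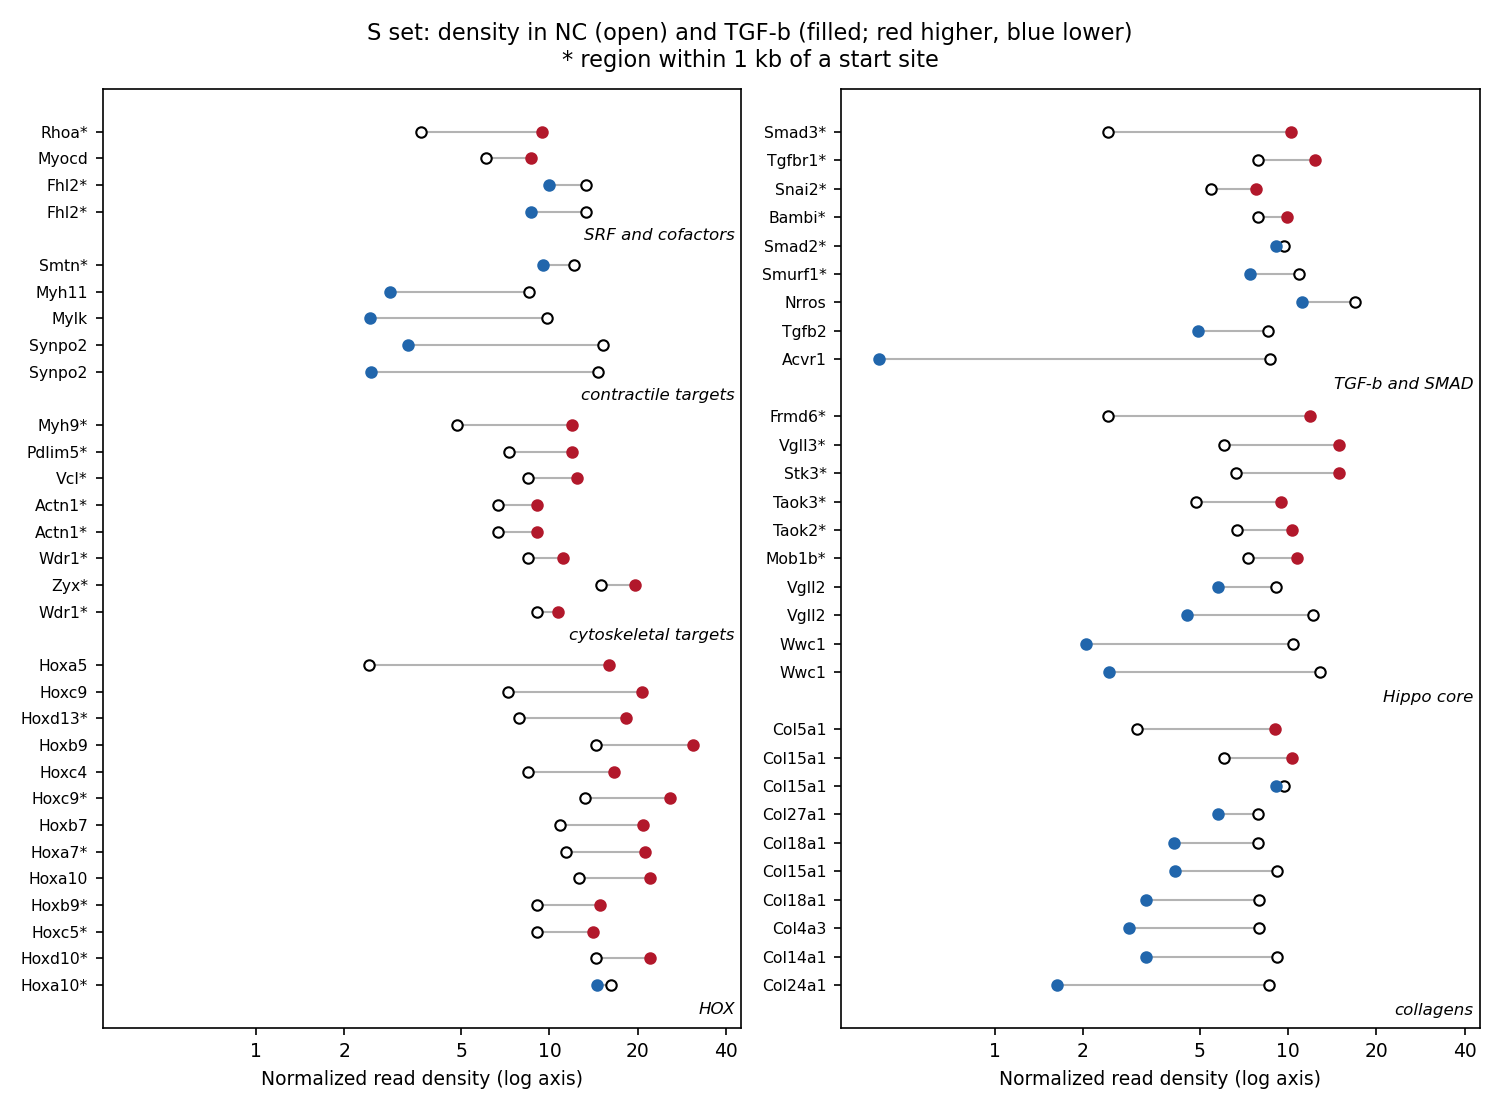
Normalised read density (log axis) of every kept region of 7 gene lists in NC (open circles) and TGF-b (filled circles, red where higher and blue where lower), with 1 row per region and an asterisk for regions within 1 kb of a start site. Start-site regions of cytoskeletal targets, the Hippo core and HOX genes mostly move to the right, and intronic regions of contractile targets and collagens mostly to the left.

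Promoters with a CArG box (CC, 6 bases of A or T, GG, on either strand, since the pattern is its own reverse complement) were described over the 300 bases from 250 before to 50 after the RefSeq start site. Kept regions within 1 kb of a start site of such genes numbered 34 in 30 genes, and 13 of them (38.2%, 23.9 to 55.0) were raised and 1 was lowered, and their median was 0.66 (-0.075 to 1.23). These regions may lie at another start site than the RefSeq promoter searched, for the genes printed above as well. The counting interval of the raised share includes the 25.9% of all start-site regions. Eif2s1 held 2 and 25 reads (2.53, 1.13 to 4.99), Arrdc4 6 and 45 (2.16, 1.16 to 3.55) and Mknk2 10 and 36 (1.20, 0.31 to 2.29). Ctdsp1, given above, also carried a box. Vcl and Anxa5, a phospholipid-binding annexin with 17 and 40 reads (0.65), were called in both libraries and stayed within 2-fold. Tmem163 had a raised region with 6 and 22 reads (1.15) and the lowered one with 15 and 6 (-1.77, -3.22 to -0.58), at different start sites, and it is counted in neither group below. Which of them belongs to the promoter printed above was not tested.

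Over protein-coding genes, a CArG box was present in 10 of 570 promoters (1.75%, 0.96 to 3.20) of genes with a raised start-site region, in none of 147 (upper bound 2.55%) with a lowered one, in 16 of 1357 (1.18%) with neither and in 270 of all 17491 promoters (1.54%, 1.37 to 1.74). The intervals overlap, so a difference was not detectable at these numbers. Sequences were matched for 82.4%, 84.5% and 81.4% of the genes in the 3 groups. The ETS letters CCGGAAG were in 17.4% of promoters with raised regions, 13.6% with lowered, 14.7% with neither and 11.9% of all. The TEAD letters GGAATG were in 10.7%, in 22 of 147, in 11.9% and in 13.4%, the AP-1 letters TGANTCA in 4.74%, 10.2%, 5.01% and 7.08%, and the SP letters GGGCGG in 72.3%, 57.1%, 72.7% and 46.3%. The CRE letters TGACGTCA were in 2.98%, 4.08%, 3.10% and 2.34%, and the NF-Y letters CCAAT in 41.9%, 40.1%, 45.5% and 39.0%. Both strands were searched, and SP letters can overlap other GC-rich motifs. Promoters with a raised region or neither had a median of 22.5 and 22 CpG in 300 bases, compared with 17 for lowered and 13 for all, and GC content moved with the SP letters (63.3%, 63.3%, 59.7% and 56.3%). Its part in the ratios was not tested.

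In the TGF-b pathway, ligands bind receptor kinases that phosphorylate SMAD proteins. Of 9 kept regions of this list 1 was raised and 1 lowered, with a median of -0.094 beside -0.20 over all kept regions with a gene. Smad3, the receptor-activated SMAD of this pathway, was raised at its start site (chr9:63665405-63665557) with 3 and 24 reads (2.07, 0.78 to 4.06). Tgfbr1, the type I receptor, held 12 and 29 reads at chr4:47353074-47353301 (0.65, -0.23 to 1.67) and Snai2, a target factor of mesenchymal cells, held 8 and 18 (0.51). Acvr1, a type I receptor for BMP and activin ligands, held 13 and 0 reads in an intron, at least 5.36-fold lower. The start sites of Smad2 (15 and 21 reads) and Bambi, a decoy receptor (12 and 23), and a region of Smurf1, a ubiquitin ligase for SMADs (17 and 17), were within 2-fold.

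BMP signalling showed the start-site contrast within a gene. Bmp7 was raised at its start site with 5 and 37 reads (2.10, 1.02 to 3.63), while 3 of its 7 kept regions, all away from the start site, were lowered. Gdf10 was raised in its 5' UTR with 7 and 30 reads (1.39), and Bmp5 (13 and 2 reads) and Bmpr1b (12 and 5) were lowered in introns. In all, 2 of 13 regions were raised and 6 lowered, beside 18.6% and 27.1% of all kept regions with a gene, and 10 of the 13 lay away from start sites. Of all 6300 such gene regions, 932 were raised and 2318 lowered.

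Growth factor genes had raised and lowered regions in equal number. Of 16 regions of PDGF, FGF and IGF signalling 5 were raised and 5 lowered, beside 18.6% and 27.1% of all kept regions with a gene, and the list's median of -0.20 was that of all these regions. Igfbp5, an IGF-binding protein, held 1 and 26 reads in an intron (3.17, 1.57 to 6.65). Pdgfrb, the PDGF receptor of mesenchymal cells, held 19 and 2 reads in an intron (-3.32, -5.79 to -1.89). Fgf14 had a raised intronic region (1 and 19 reads) and Fgf12 a lowered one (14 and 4 reads).

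In the Hippo pathway, a kinase cascade keeps the coactivators YAP and TAZ out of the nucleus. The 10 kept regions of the core list had 3 raised and 3 lowered, beside 18.6% and 27.1% of all kept regions with a gene, and they lay in different places. The 3 raised regions, in Frmd6 (3 and 28 reads, 2.28, 1.02 to 4.28), Vgll3 (9 and 35, 1.29) and Stk3, the kinase MST2, were among 6 start-site regions with a median of 1.06. The lowered ones, 2 in Wwc1 (20 and 5 reads in the lower, -2.38) and 1 in Vgll2 (19 and 10, -1.43), were intronic. The Frmd6 start site lay at chr12:70872338-70872492.

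YAP/TAZ target genes had 2 of 19 regions raised and 6 lowered (median -0.79). Tead3, a TEAD factor, was raised at its start site with 4 and 28 reads (1.97, 0.79 to 3.69). Rbms3, an RNA-binding protein gene with long introns, supplied 10 of the regions and 5 of the lowered ones, and without it 2 of 9 were raised and 1 was lowered, with a median of -0.37.

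The list of fibrillar and associated collagens, which does not hold Col23a1 described above, had no kept region near a start site. Of its 10 regions 5 were lowered and 1 raised, with a median of -1.05, beside -0.64 over the 6300 kept gene regions away from start sites. Col24a1 held 13 and 3 reads (-2.40), Col14a1 14 and 7 (-1.48) and Col4a3 12 and 6 (-1.47), all in introns. Col4a3 was in this list although it encodes a basement membrane collagen. Col5a1, a fibrillar collagen, was raised with 4 and 21 reads between 1 and 2 kb upstream of a start site (1.56, 0.34 to 3.29).

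Matrix-associated genes had raised and lowered regions. Ltbp3, which holds latent TGF-b in the matrix, was raised at its start site with 3 and 21 reads (1.88). Ltbp2, a matrix protein of the same family, was raised there with 3 and 19 reads (1.74). All 3 start-site regions of this list of 9 were raised. Fbn2, a fibrillin, and Fbln5, a fibulin of elastic fibres, were lowered in introns with 12 and 2 and with 12 and 5 reads. Matrix proteases had 2 of 13 raised, among them an Adamts9 intron (2 and 21 reads), and 5 lowered, among them Adam19 (12 and 2) and Adamts14 (16 and 6). Of 10 integrin and focal adhesion regions 2 were raised and 4 lowered, with Itga6, a laminin receptor subunit, raised in an intron (3 and 22 reads, 1.94). Itga7, another laminin receptor subunit, was lowered within 1 kb of a start site (12 and 5 reads, -1.70).

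Mechanosensitive channel genes had 2 of 19 regions raised and 7 lowered, with a median of -0.30, which was 0.26 without the line. Piezo2, a stretch-activated channel, was raised upstream of a start site with 2 and 20 reads (2.22, 0.79 to 4.68), and an intron held 12 and 7 reads (-1.28). The 5 regions of Piezo1 ran from 5 and 24 reads in its 3' UTR (1.49, 0.35 to 3.03) through 8 and 21, 14 and 17 and 14 and 10 to 16 and 6 in an intron (-1.85, -3.30 to -0.68). Piezo1 was thus raised in 1 place and lowered in others. Trpc6, a cation channel, held 14 and 29 reads near its start site (0.45), and its other 2 regions were lowered (20 and 8, and 15 and 8 reads).

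Genes of heat shock proteins and DNAJ cochaperones were represented by start-site regions alone. All 22 kept regions lay within 1 kb of a start site and had log2 ratios above 0, 7 were raised and none lowered, and the median was 0.76 (0.50 to 1.23) beside 0.45 over all start-site regions. One of them belonged to Hspg2, which was caught by its symbol and encodes perlecan, a matrix proteoglycan, and without it 6 of 21 were raised and the median was 0.75. Chordc1, an HSP90 cochaperone, held 2 and 37 reads (chr9:18203262-18203644, 3.09, 1.72 to 5.54), Dnajc4 3 and 28 (2.28), and Hspa8, the constitutive HSC70, 8 and 32 (1.32, 0.35 to 2.53). Hspa2 was lowest with 22 and 34 reads (0.068).

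HOX genes, which pattern the body axis and lie in CpG-rich clusters, were not divided by place in this way. Their 13 regions had 4 raised and none lowered, 12 had log2 ratios above 0 on the authors' scale, and the median was 0.94 (0.63 to 1.21). The 6 regions away from start sites had a median of 1.04 and the 7 near them 0.72. Hoxa5 held 3 and 38 reads (2.72, 1.48 to 4.70), Hoxc9 11 and 49 in an exon (1.52), Hoxd13 12 and 43 (1.21) and Hoxb9 23 and 73 (1.10, 0.47 to 1.81), and Hoxa10 alone had a region below 0, with 26 and 34 reads. These regions were among the better covered, with medians of 17 and 49 reads.

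KLF and SP factors, which bind GC-rich promoters, had 4 of 12 start-site regions raised and none lowered (median 0.93). Klf3, a transcriptional repressor, held 12 and 70 reads at chr5:64960351-64960804 (1.91, 1.14 to 2.88), and Sp1 held 9 and 48 (1.75, 0.86 to 2.87). The 5 other regions had 3 lowered, including Klf12 (15 and 6 reads). SOX factors had 4 of 4 start-site regions raised. Of the 8 others 7 lay in Sox5, of which 6 were lowered, and the remaining one, in an intron of Sox21, was raised with 7 and 36 reads (1.65). Zfp zinc finger genes had 30 raised and 16 lowered of 141, beside 18.6% and 27.1% of all kept regions with a gene, with medians of 0.50 near start sites and 0.30 elsewhere, where all such regions had medians of 0.45 and -0.64. In the transcription factor classes of the table, homeobox genes had 24 raised and 14 lowered of 96 regions (median 0.53) and C2H2 zinc finger genes 49 and 24 of 205 (0.47).

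Fibroblast lineage factors and chromatin regulators were represented by few regions. Of 9 regions of fibroblast lineage transcription factors 4 were raised and 3 lowered. Wt1, a factor of the epicardium, and an intronic region of Nfatc2, a calcium-responsive factor, each held 5 and 22 reads (1.37, 0.21 to 2.92), while Tbx5, a factor of heart development, held 12 and 5 (-1.70) and Runx2, a factor of bone, held 12 and 6 (-1.47). Of 9 regions of TET, DNMT and other chromatin genes, Ezh2, the Polycomb methyltransferase, was raised (7 and 24 reads, 1.08), and the start site of Arid1a, a subunit of the BAF remodeller, was lowered (13 and 6 reads, -1.58). Tet1 held 12 and 10 reads and Dnmt1 held 18 and 15, both within 2-fold. Fibrosis cytokine and NF-kB genes had none raised and 2 lowered of 7, both in Il1rl1, the receptor of interleukin 33, with 16 and 7 and with 12 and 7 reads. Stat3, a factor downstream of cytokine receptors, held 7 and 21 reads (0.89).

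Genes of basic cell functions gave few regions. Cytosolic ribosomal proteins had 6 kept regions, of which 2 were raised and 3 lowered, mitochondrial ribosomal proteins had 9 (1 raised), respiratory chain subunits 10 (2 raised, 2 lowered) and proteasome subunits 7 (1 raised). Rps21, a ribosomal protein gene, held 3 and 29 reads in the S set (2.33), and Psmc4, a proteasome ATPase, held 8 and 36 (1.48).

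Cell cycle genes had 2 of 10 regions raised and 1 lowered (median 0.52). Mki67, a marker of proliferating cells, held 5 and 25 reads at its start site (1.55, 0.42 to 3.09), and Ccna2, the S-phase cyclin, held 10 and 41 (1.38, 0.51 to 2.47) and was called in both libraries. Mcm3, a subunit of the replicative helicase, held 15 and 13 reads (-0.76). RAB GTPases, regulators of vesicle traffic, had 5 of 25 raised and 1 lowered, beside 18.6% and 27.1% of all kept regions with a gene. At start sites 5 of 22 were raised and the median was 0.22, below the 0.45 of all start-site regions. Rab5c (4 and 23 reads, 1.69) and Rab5a (10 and 36, 1.20), both of early endosomes, were raised at start sites, and an intron of Rab32 was lowered with 13 and 1 reads (-3.41, -6.88 to -1.73).

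**Figure D4:**
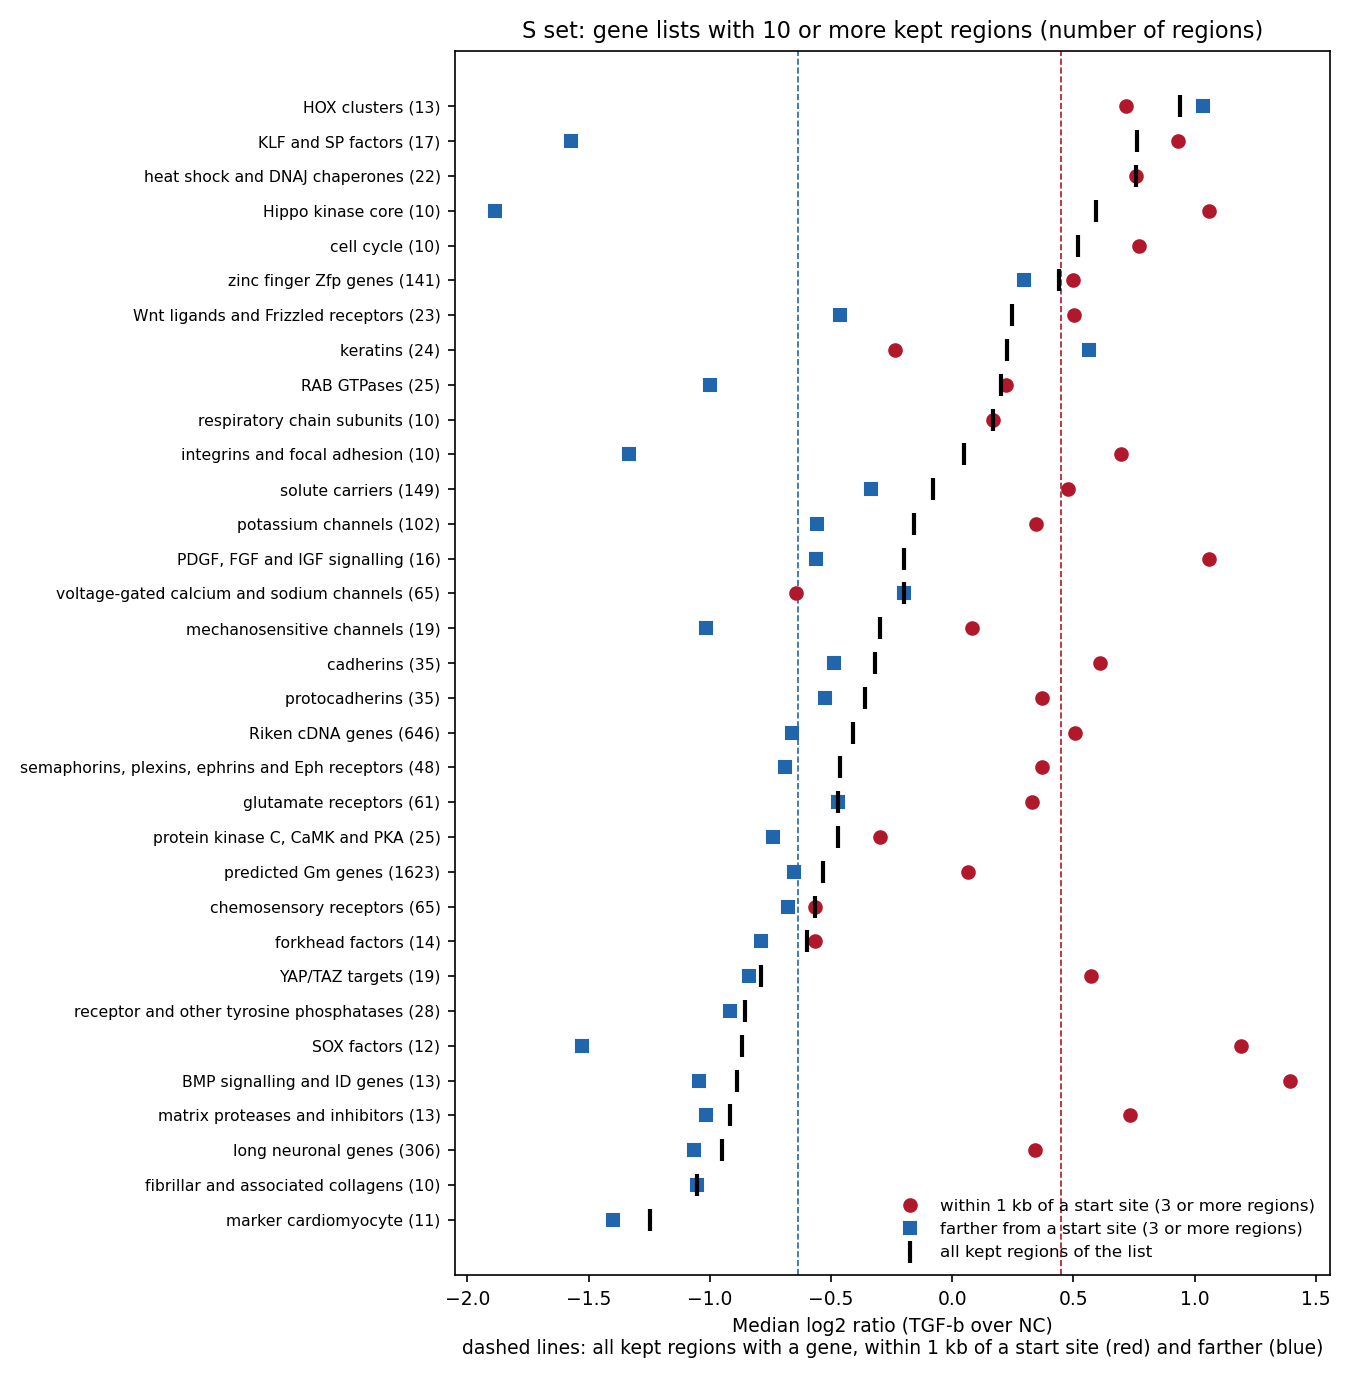
Median log2 ratio of TGF-b over NC for gene lists with 10 or more kept regions, over all its regions (black ticks), those within 1 kb of a start site (red circles) and those farther away (blue squares), with the medians over all kept gene regions as dashed lines at 0.45 and -0.64. Most lists place the red circle to the right of the blue square, with HOX genes, keratins and voltage-gated calcium and sodium channels as exceptions among lists with both points drawn (3 or more regions each), and many of the black ticks below 0 move above 0 without the authors' line.

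Long genes of neurons had many lowered regions, with 31 raised and 149 lowered of 306 regions and a median of -0.95 (-1.16 to -0.81). Of these 289 lay away from start sites, and over all genes 39.3% of regions beyond 10 kb were lowered. The 17 others lay near a start site, and 5 were raised and none lowered (median 0.34). Cntnap5a, a neuronal adhesion molecule, held 21 and 2 reads in an intron (-3.46, -5.92 to -2.04). Chemosensory receptor genes, which are silent in most tissues, were low at start sites too. Of their 29 start-site regions 4 were raised and 10 lowered, with a median of -0.57, near the -0.68 of their 36 other regions. Olfactory receptor gene Or11g2 held 16 and 3 reads near its start site (-2.67, -4.68 to -1.32).

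Ion channel, transporter and adhesion families had regions past 2-fold in both directions. The shares over all kept regions with a gene were 18.6% and 27.1%. Potassium channel genes had 20 raised and 24 lowered of 102 regions, glutamate receptors 6 and 22 of 61, solute carriers 37 and 35 of 149 and cadherins 8 and 11 of 35. Among these, Cacng2 (3 and 37 reads, 2.68), Grm4 (4 and 42, 2.54) and Cdh23 (4 and 35, 2.28) were raised in introns, and Kcne4 (20 and 1) and Cacna1c (14 and 1) were lowered there. Wnt1, a secreted ligand, was raised with 4 and 43 reads (2.57, 1.44 to 4.28) and an intron of Wnt5a was lowered with 17 and 3 (-2.75). Of the 34 lists with 10 or more regions, 11 had a median above 0 with the authors' line and 9 had a median below 0 with and without it, while 12 turned from below to above 0 and the remaining lists reached 0.

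Marker genes of cell types were counted as well, although a region shows chromatin association and not expression. Of 12 cardiac fibroblast markers 4 had any region and 1, Ddr2, a kept one (5 and 18 reads in an intron, 1.09, -0.10 to 2.65), so the labelled cell type was not checked by these regions. Cardiomyocyte markers had 11 kept regions, none raised and 6 lowered (median -1.25), beside 18.6% and 27.1% of all kept regions with a gene, and 7 of the 11 were in the long gene Ryr2, and Tnnt2 (16 and 6 reads) and Ttn (15 and 8) were lowered as well. Endothelial markers had 5 kept regions, 1 raised at the start site of Vwf (2 and 26 reads, 2.59) and 1 lowered. Leukocyte markers had 1, in Ptprc (13 and 11 reads), and smooth muscle or pericyte markers 4 with 3 lowered. In bulk chromatin, fewer cells of a type and less signal per cell cannot be told apart.

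The pathway annotations of the table repeated the division. Over 155 KEGG pathways with 20 or more genes, medians ran from -0.86 for ECM-receptor interaction to 0.67 for oocyte meiosis. Of the 141 with 10 or more start-site regions, 136 had a start-site median above 0 on the authors' scale, 138 had a median below 0 in their other regions and 139 had the start-site median above the other. In TGF-beta signaling, 5 of 14 start-site regions were raised and none lowered (median 0.70), whereas 2 of 17 others were raised and 9 lowered (-1.03). Focal adhesion had 10 raised and 2 lowered of 27 (0.74) against 6 and 15 of 38 (-0.81), Hippo signaling 9 and 1 of 28 (0.53) against 5 and 29 of 59 (-0.95), and cell adhesion molecules 4 and 0 of 17 (0.50) against 11 and 51 of 108 (-0.92). Regulation of actin cytoskeleton, with a median of 0.34, had 10 raised and 3 lowered of 29 start-site regions (0.55). The exceptions at start sites were olfactory transduction (-0.46), alcoholic liver disease, GABAergic synapse, ErbB signaling and ECM-receptor interaction, with medians below 0.

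Biological process terms behaved alike, with 220 of 231 start-site medians above 0 and the start-site median above the other in 228. Cell division had 33 raised and 3 lowered of 89 start-site regions (0.69) and protein ubiquitination 32 and 4 of 102 (0.67). Inflammatory response (median -0.81 over 110 regions), chemical synaptic transmission (-0.79 over 168) and cell adhesion (-0.66 over 395) were low through their regions away from start sites, which had medians of -1.11, -0.92 and -0.84. Across terms, the median rose with the share of start-site regions, with a Pearson correlation of 0.72 over 235 process terms and 0.48 over 155 pathways, as a description, since terms share genes and all come from the same libraries.

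The T set, read as TAZ, was made from other libraries and held its own NC control, and its table was normalised separately. Of the kept S set regions, 3174 (18.6%) overlapped a kept T set region by 1 bp or more, including 1901 (58.9%) of those near start sites and 9.09% of those with no gene. At the shared regions the medians were 0.53 in the S set and 0.50 in the T set near start sites, -0.46 and -0.54 from 1 to 10 kb, -0.63 and -0.54 beyond 10 kb and -0.54 and -0.58 with no gene. Over all its own kept regions the T set had other medians, 0.23 near start sites, -1.17 beyond 10 kb and -1.22 with no gene. Single regions matched less. Of the 502 shared start-site regions raised in the S set, 157 (31.3%) were raised and 9 lowered in the T set, where 25.7% of all shared start-site regions were raised. Of the 79 lowered in the S set, 14 (17.7%) were lowered and 20 raised in the T set, where 3.16% were lowered. Over all places, 201 of 491 lowered regions (40.9%) were lowered in the T set, where 15.7% of all shared regions were lowered. The correlation of log2 ratios was 0.13 over start-site regions and 0.33 over all shared regions.

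Some named genes were raised in both sets, but most named regions raised in the S set were not at least 2-fold higher in the T set. Klf3 held 27 and 126 reads in the T set (2.14, 1.58 to 2.77), Gls2 4 and 36 (2.98), Rab5c 16 and 51 (1.63) and Ctdsp1 22 and 49 (1.13). Fosl2 (1.13), Hspa8 (1.07) and Dgat1 (1.01) were past 2-fold as well. Vcl, within 2-fold in the S set, was raised in the T set with 31 and 76 reads (1.24, 0.67 to 1.86), and so was Tgfbr1 (1.03). Synpo2 (-1.71) and Mdga2 (-1.97) were lowered in both. Unk, with 30 and 18 reads in the T set (-0.67), and Mki67, with 50 and 30 (-0.73), lay below 0 there, and Smad3 (37 and 52 reads, 0.46) and Myh9 (105 and 130, 0.20) were within 2-fold.

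**Figure D5:**
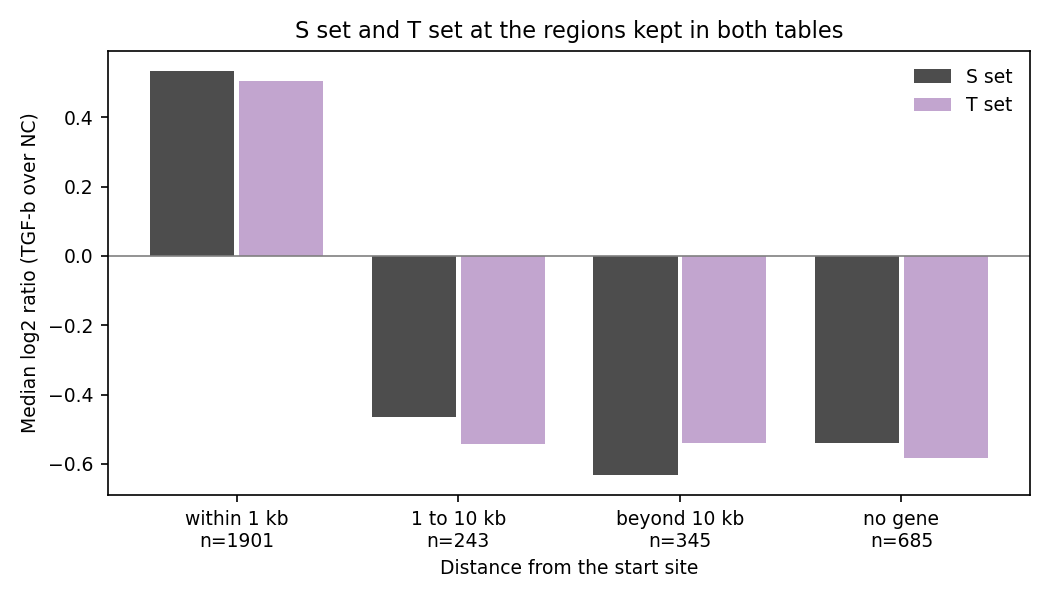
Median log2 ratio of TGF-b over NC at regions kept in both tables, by place, for the S set (dark bars) and the T set (light bars), with the number of shared regions under each class. In both sets start-site regions lie above 0, at 0.53 and 0.50, and the other classes lie between -0.46 and -0.63.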

How the data were processed

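CUT&Tag libraries of primary mouse cardiac fibroblasts were compared, 1 treated with TGF-b and 1 labelled NC, and 2 further libraries of the T set were read beside them. The methods of the study give Bowtie2 and GRCm39 for mapping, while the submitters' processing notes name BWA 0.7.12 and mm10. Start sites implied by the deposited distances do not match those of GRCm38, so coordinates were taken as GRCm39. The deposited normalised read density is a signal, reads plus 1 over a window of 2 kb, and the authors had shifted the 2 libraries by a line that depends on mean log2 density. Undoing the line (intercept -0.64, slope 0.0266) gave whole reads within 0.1 in 99.98% of regions. Library totals were not used here. The deposited tables also hold the authors' log2 ratios, mean values and p-values for each comparison, which were not used. Gene, annotation, distance, KEGG, GO and transcription factor class were the authors' assignments.

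The log2 ratio of TGF-b over NC density was computed in Python 3.11.15 with pandas 2.3.3, numpy 2.4.6 and scipy 1.17.1. With 1 library a side no test was made and no paired analysis was possible. A library with 0 reads was set to 3 for a fold. Wilson intervals of 95% were used for shares and ratios and rank intervals for medians, and the calculation was tested on simulated data. Windows of neighbouring regions overlap, and 2312 kept regions had a kept neighbour within 2 kb.

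The members and the 53 gene lists were chosen with earlier results of these data known. Genes were named by rule: the 12 regions with the interval bound farthest from 0 in each direction, the 10 genes with most raised and most lowered regions, up to 4 genes per list past 2-fold, 38 listed genes and the 8 deepest regions called in both libraries below 500 reads. Other members of a list are given where the list is described, and some genes and 1 list are not reported here. Promoters (RefSeq, GRCm38.p6) were matched by symbol over protein-coding genes, a restriction made after seeing the match over all genes. Alternatives were the scaling, threshold, minimum density, chromosomes, depth, clustering, call class, place and region per gene.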

Additional observations from a re-analysis of the deposited data

Results flagged for a closer look

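For 3 genes of the lists described above, a region was past 2-fold in opposite directions in the S set and the T set, with both counting intervals off 0. The difference was not tested, since each set had 1 library per treatment. Such reversals were not particular to these genes. Among the 3174 regions kept in both tables, 42 of 633 raised in the S set were lowered in the T set. Of 491 lowered in the S set, 57 were raised in the T set. These counts carry no condition on intervals. An intron of Cntnap5a, a neuronal adhesion molecule, had a log2 ratio of -3.46 in the S set (21 reads in NC and 2 in TGF-b) and 1.61 in the T set (3 and 10 reads). The 5' UTR of Ndufs6, a subunit of respiratory complex I, had -1.68 (14 and 6 reads) and 1.81 (6 and 22 reads). The 5' UTR of Rab3b, a GTPase of secretory vesicles, had 1.49 (5 and 24 reads) and -1.41 (19 and 6 reads). An intron of Hdac9, a histone deacetylase, had -2.71 in the S set (12 and 2 reads) and held 0 and 4 reads in the T set, too few to place it past 2-fold when the library with 0 reads is set to 3.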

How the results depend on the processing

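The difference of 1.11 between the medians of start-site regions and regions with no gene kept its direction under every alternative tried. It was 0.59 with no minimum density, 1.33 with a minimum of 15 and 0.54 in regions called in both libraries, and 0.34 and 0.57 under a pair of alternatives chosen after seeing the data, no line with a minimum of 15 reads in a library, and as many regions with the highest mean density. The counts of raised and lowered regions (2695 and 5406) and the median (-0.42) moved more. Without the authors' line they were 5057, 3001 and 0.13. Centring gave a median of -0.22. With no minimum density they were 9193, 14063 and -0.20, with a minimum of 15 they were 325, 341 and 0.17, in regions called in both libraries 59, 80 and 0.062, and within 1 kb of a start site 837, 264 and 0.45. The alternatives added later gave 7740, 1552 and 0.86 by reads and 1460, 2488 and -0.12 by mean density. A threshold of 1.5-fold gave 4345 raised, 4-fold gave 588 raised and 1474 lowered, and the counting bound gave 335 raised and 951 lowered. The cause of these shifts was not tested beyond what each setting removes. Of the 34 gene lists with 10 or more regions, 2 (PDGF, FGF and IGF signalling, and voltage-gated calcium and sodium channels) had the same median as all kept gene regions, and the others stayed on their side of it without the line and with centring. Among start-site regions alone, RAB GTPases (-0.23) and Riken cDNA genes (0.056) changed sides. Low reads limit single regions, since 27.5% of all regions and 9.27% of kept ones had 3 reads or fewer in a library. No paired analysis was possible because each treatment had 1 library.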
